A study of Mus musculus with 32 samples.

Results

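Expression of 7 genes that build and cluster the neuromuscular junction (*Agrn*, *Lrp4*, *Musk*, *Dok7*, *Rapsn*, *Colq* and *Ache*) was followed through postnatal growth of the skeletal muscle of WT and *Mtm1* KO mice. The genes were taken as a list of symbols, each matched to 1 Ensembl identifier, and are 7 of the 54838 genes in the table. *Mtm1* encodes myotubularin, a lipid phosphatase whose loss causes X-linked myotubular myopathy. The KO line carries a deletion in exon 4, was made in 129S2PAS mice and was rederived onto C57BL6/J, the background given for WT and KO alike. RNA came from tibialis anterior (TA) muscle, which the labels call skeletal muscle, of mice aged 1, 14, 21 or 35 days (P1, P14, P21 and P35). Each age had n=4 mice per genotype, with 1 library per mouse and no treatment. Poly(A) RNA was sequenced, so all 32 libraries report the whole muscle piece with its fibres, nerve endings, Schwann cells, vessels and connective tissue.

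The junction is assembled around 1 signal. Agrin, a heparan sulphate proteoglycan released by the motor axon and also made by muscle, binds LRP4 on the fibre surface, and LRP4 then activates the receptor tyrosine kinase MuSK. The cytoplasmic adaptor Dok-7 binds and sustains active MuSK, and rapsyn holds acetylcholine receptors (AChRs) together beneath the nerve ending. ColQ, a collagen-like tail, fixes acetylcholinesterase, the product of *Ache*, in the synaptic basal lamina, where the enzyme ends transmission by hydrolysing acetylcholine. Mutations of most of these genes cause congenital myasthenic syndromes, and several of the genes are transcribed mainly by the few nuclei that lie under the synapse.

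Some of the sequence features that separate these proteins lie below the resolution of a count per gene. Neural agrin, the form that activates MuSK strongly, differs from the agrin of other cells by short exons near the 3′ end of the gene. *Agrn* (ENSMUSG00000041936) lies at chr4:156165290-156197488 on the minus strand of GRCm38, and the annotation holds coding exons of 12, 24 and 33 bases there, each in 1 of 4 coding transcripts. They are shown because the counts of *Agrn* sum over transcripts with and without them. Each is written 5′ to 3′ from the transcript, with the exon in capitals and 9 flanking transcript bases on either side in lower case.
Agrn 12-base exon, chr4:156169546-156169557: gaatctccgAAATCCCGCAAGgtcccgcac
Agrn 24-base exon, chr4:156168546-156168569: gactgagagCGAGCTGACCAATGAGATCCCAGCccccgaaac
Agrn 33-base exon, chr4:156167777-156167809: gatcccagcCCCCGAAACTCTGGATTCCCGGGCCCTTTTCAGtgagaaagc
The exons add 4, 8 and 11 codons. A change of *Agrn* counts therefore carries no information on the neural form.

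ColQ binds a tetramer of catalytic subunits through a run of prolines near its start, the proline-rich attachment domain. It is shown because the results turn on *Colq* and on the enzyme that it binds there. *Colq* (ENSMUSG00000057606) lies at chr14:31523082-31591343 on the minus strand, and the run spans codons 56 to 65, with the codons of the form CCN, which encode proline, in capitals.
Colq codons 56 to 65, coding exon, chr14:31553764-31553793: CCCCCACCGCCCCCActcttcCCACCGCCG
Of the 10 codons, 8 encode proline. The run lies within a single exon.

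Levels are given as CPM, read counts scaled to the size of the library, with sizes corrected by TMM over all 32 libraries, and for comparisons between genes as CPM per kilobase of exon. The counts summed to 49321019 to 85631391 per library. At P1 *Mtm1* was at 2.32 to 3.91 CPM in KO and 5.26 to 6.02 CPM in WT. The log2 fold change of KO against WT was −0.98 at P1, with an adjusted *P* of 0.0668. It was −2.34, −2.71 and −2.56 over the later ages (adjusted *P*=5.27e-06, 8.13e-06 and 1.83e-06). Summed keratinocyte markers were 2017 to 7302 CPM at P1 and at most 60.4 CPM later, so the P1 samples held skin transcripts. The part of these in the changes from P1 to later ages was not tested. Of 8 motor neuron markers, *Chat* had at most 3 counts in every library. Others were present, and 5 of the 8 passed the filter on low counts at P1, 1 at P14 and at P21, and 2 at P35. At P1 the median log2 fold change of those tested, KO against WT, was 1.39, beside 0.01 for all genes. The part of nerve transcripts in the values below was not tested. The summed CPM of 6 muscle fibre genes, among them *Ckm* and *Acta1*, was high in all libraries and at P35 did not overlap between WT (93864 to 153760) and KO (60165 to 91320), and the part of this in the values below was not tested.

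All 7 genes passed the filter on low counts at every age. Per kilobase of exon, the order in WT at P1 was *Rapsn* (10.8 CPM per kb), *Agrn* (9.73), *Ache* (9.31), *Lrp4* (4.29), *Dok7* (4.08), *Musk* (3.47) and *Colq* (2.94). In WT at P35 the order was *Ache* (15.1 CPM per kb), *Rapsn* (14.0), *Dok7* (6.93), *Agrn* (3.62), *Colq* (2.50), *Musk* (1.95) and *Lrp4* (1.73). In KO at P35, *Colq* stood at 8.72 CPM per kb, above *Dok7* (5.50), *Musk* (2.92), *Agrn* (2.66) and *Lrp4* (2.001), and *Ache* at 26.5 CPM per kb. The enzyme and its anchor were thus the 2 genes whose KO level at P35 lay furthest above WT.

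A differentially expressed gene (DEG) had an adjusted *P*-value under 0.01 and a change of more than 1.5-fold. Between KO and WT, 1 of the 7 genes was a DEG, *Colq* at P35, where it was higher in KO. Of the 18100 genes tested at P1, 0.0442% were DEGs, and of the 15728 at P14 0.0318%, with 0 of the 7 genes at both ages in edgeR's quasi-likelihood test and in DESeq2. At an unadjusted *P* under 0.05, 1 of the 7 differed at P1 (1978 of all 18100 genes) and 4 at P14 (1072 of 15728). At P21, 4.67% of the 15179 genes tested were DEGs and 0 of the 7 in edgeR or DESeq2 (4 at an unadjusted *P* under 0.05, against 5329 of all 15179). Of the 15595 genes tested at P35, 16% were DEGs, so that 1 of 7 is near the background. At an unadjusted *P* under 0.05, 6 of the 7 differed there, against 7848 of all 15595.

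The median log2 fold change over the 7 genes, KO against WT, was 0.06, 0.30, 0.35 and 0.24 in order of age. The median over all genes tested was 0.01, 0.00, 0.01 and 0.04. The number of genes with a higher level in KO was 5, 6, 6 and 5 of 7. Libraries of the genotypes did not overlap for *Dok7* at P1, *Dok7* and *Rapsn* at P14, *Lrp4* and *Colq* at P21 and *Colq* at P35, each with KO above WT. Over all genes tested, the share without overlap was 8.62%, 4.84%, 24.7% and 39.6% in order of age.

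**Figure D1:**
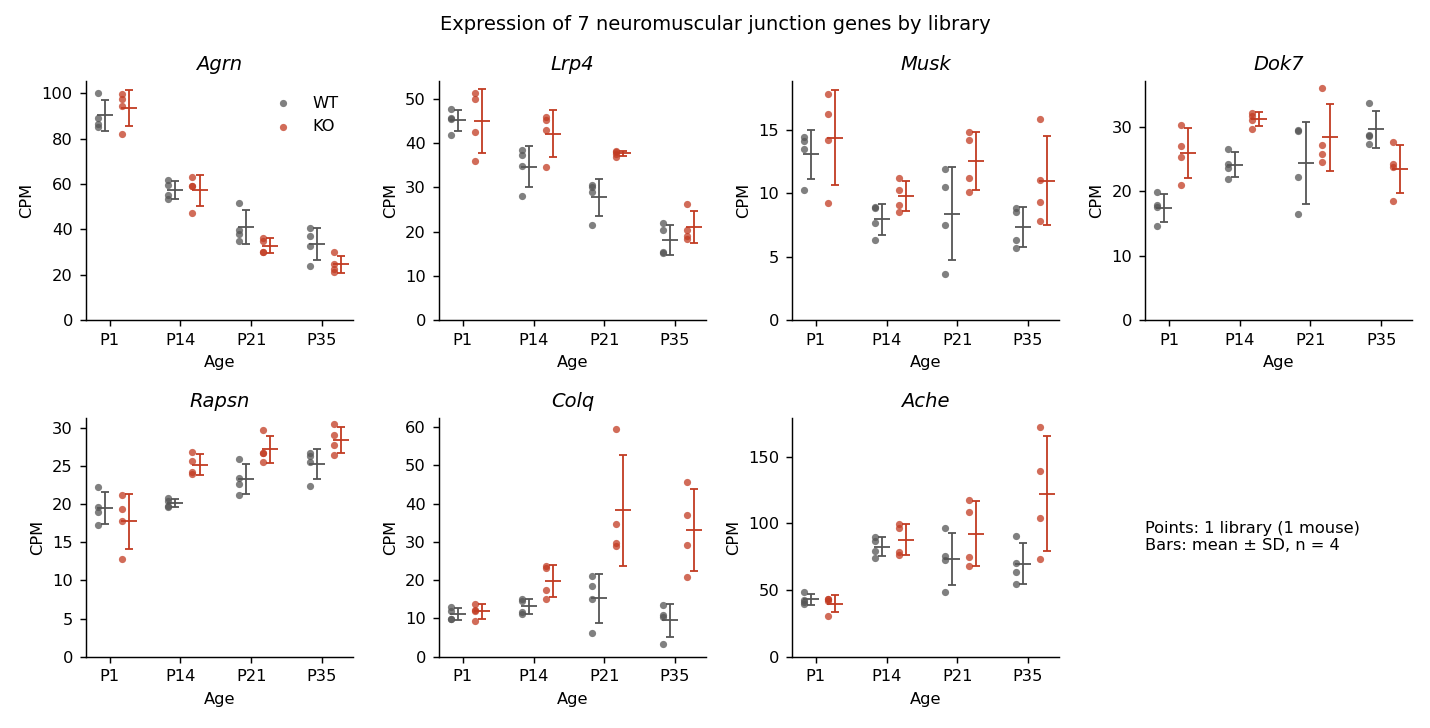
CPM (linear axis) of the 7 genes by age, with a point for each library (WT grey, KO red) and a bar for the mean ± SD of n=4. All 4 KO libraries lie above all 4 WT libraries for Colq at P21 and P35, whereas Agrn and Lrp4 end lower at P35 than at P1 in both genotypes.

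**Figure D2:**
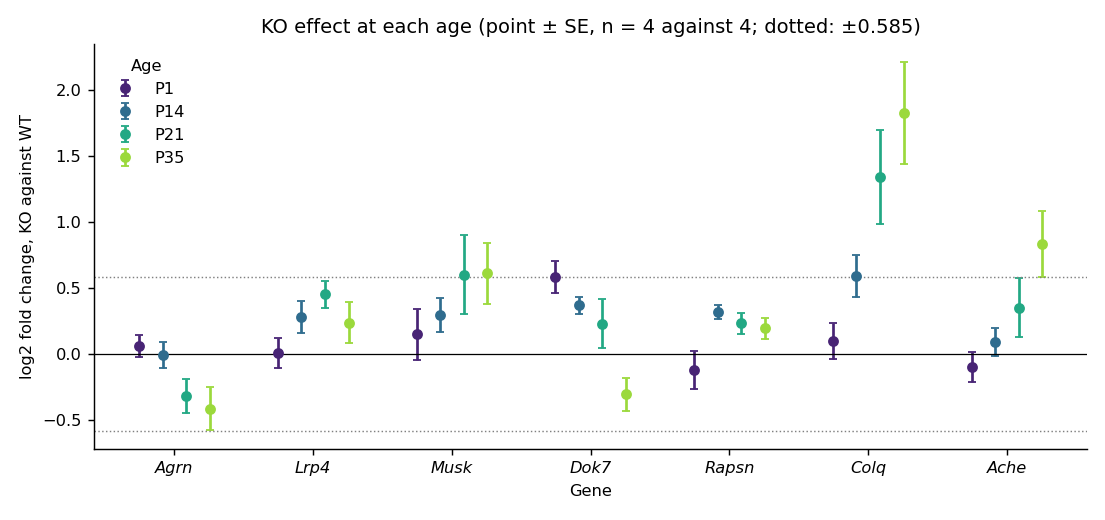
Log2 fold change of KO against WT for each gene at P1, P14, P21 and P35 (point ± SE, n=4 against 4), with the 1.5-fold cutoff dotted. Colq runs from 0.10 at P1 to 1.83 at P35 and Dok7 from 0.58 to −0.31.

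*Agrn*, the ligand, fell with age in both genotypes. WT libraries held 86.6, 89.1, 100.4 and 85.4 CPM at P1 and 61.6, 59.5, 53.2 and 55.4 CPM at P14. KO libraries held 99.6, 97.7, 81.9 and 94.6 CPM at P1 and 63.2, 59.3, 47.0 and 59.2 CPM at P14. The P1 and P14 libraries did not overlap in either genotype, and the log2 fold change from P1 to P14 was −0.65 in WT (adjusted *P*=6.33e-05) and −0.71 in KO (adjusted *P*=2.18e-05). From P14 to P21 *Agrn* fell by 0.80 on the log2 scale in KO (adjusted *P*=6.3e-05), to 32.8±3.27 CPM. The same step in WT, to 41.0±7.40 CPM, was −0.48 (adjusted *P*=0.0078), under the 1.5-fold cutoff, and without WT P21 replicate 3, the highest of its group at 51.7 CPM, it was −0.62 (adjusted *P*=0.00143). At P35 WT libraries held 24.04, 32.7, 40.7 and 36.9 CPM and KO libraries 29.9, 24.9, 22.7 and 21.4 CPM, which overlapped. The KO effect on *Agrn* was −0.32 (SE 0.129, adjusted *P*=0.112) at P21 and −0.42 (SE 0.163, adjusted *P*=0.0649) at P35. The difference of this effect between P1 and P35 was −0.49 with all libraries (adjusted *P*=0.0482), which did not pass 0.01. It was −0.62 without WT P35 replicate 1 (adjusted *P*=0.00756) and −0.11 with library totals (adjusted *P*=0.721).

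Vessel markers were lower at these ages too. Summed over 6 endothelial genes, WT held 599 to 915 CPM and KO 480.5 to 565 CPM at P21. At P35 WT held 376 to 665 CPM and KO 323 to 389.9 CPM. There 2 of the 6, *Cdh5* and *Tie1*, were DEGs lower in KO (0 of 6 with library totals), beside 16% of all genes tested. Over the 24 libraries of P14, P21 and P35 the log2 CPM of *Agrn* had an r of 0.968 with *Pecam1*, an endothelial adhesion gene. The part of vessel content in the level of *Agrn* was not tested. In bulk muscle, fewer cells of a type and less RNA per cell cannot be told apart.

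*Lrp4* (ENSMUSG00000027253, chr2:91457511-91513779, plus strand), the agrin receptor of the fibre, also declined with age. WT libraries held 47.6, 41.9, 45.6 and 45.4 CPM at P1 and 30.6, 21.6, 29.98 and 29.0 CPM at P21. KO libraries at P21 held 38.1, 38.2, 37.4 and 37.0 CPM, a narrow range that lay above every WT library of that age. The KO effect at P21 was 0.45 on the log2 scale (SE 0.104, 1.37-fold, adjusted *P*=0.0149), which missed the call, as did that at P14 (0.28, adjusted *P*=0.715) and at P35 (0.24, adjusted *P*=0.253). With library totals it was 0.64 at P21 (adjusted *P*=0.00233) and at P35 (adjusted *P*=0.00969), past both cutoffs. At P35 the genotypes overlapped, with WT at 15.4, 15.2, 21.9 and 20.2 CPM and KO at 20.4, 26.3, 18.3 and 19.1 CPM. From P21 to P35 *Lrp4* fell by 0.61 in WT (adjusted *P*=0.00263) and by 0.84 in KO (adjusted *P*=6.84e-05). The WT call was lost without WT P21 replicate 1 (adjusted *P*=0.0126) or 3 (0.012) and without WT P35 replicate 1 (0.0151) or 2 (0.0154).

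*Musk* (ENSMUSG00000057280, chr4:58285960-58374303, plus strand), the receptor kinase, had no DEG call at any age or step with TMM and all libraries. WT libraries held 11.9, 3.61, 7.49 and 10.52 CPM and KO libraries 14.8, 10.1, 11.2 and 14.2 CPM at P21. At P35 WT held 8.83, 5.71, 8.55 and 6.30 CPM and KO 11.02, 15.9, 9.30 and 7.84 CPM. The genotypes overlapped at both ages, and WT P21 replicate 2 was the lowest of all 32 libraries. The KO effect was 0.60 (SE 0.300, adjusted *P*=0.187) at P21 and 0.61 (SE 0.231, adjusted *P*=0.059) at P35. From P1 to P14 the log2 fold change was −0.72 in WT (adjusted *P*=0.0121) and −0.56 in KO (adjusted *P*=0.0462). The WT step passed without WT P1 replicate 1, at −0.82 (adjusted *P*=0.00797). With library totals as the scaling, the step was −1.49 in WT (adjusted *P*=7.48e-06) and −1.28 in KO (adjusted *P*=5.39e-05), and the KO effect at P35 was 1.02 (adjusted *P*=0.00602), all past the cutoffs.

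*Dok7* (ENSMUSG00000044716, chr5:35056766-35087839, plus strand), the adaptor that keeps MuSK active, was the gene with the largest KO effect at P1. KO libraries held 27.0, 25.3, 30.3 and 21.0 CPM and WT libraries 14.6, 19.9, 17.6 and 17.8 CPM at P1, without overlap. The log2 fold change was 0.58 (SE 0.123, 1.5-fold), with an adjusted *P* of 0.114. The gap was still without overlap at P14, with 31.1, 29.7, 31.7 and 32.2 CPM in KO and 21.9, 24.3, 23.7 and 26.6 CPM in WT (0.37, SE 0.0678, adjusted *P*=0.139). At P21 the genotypes overlapped (KO 28.4±5.24 CPM, WT 24.4±6.31 CPM, adjusted *P*=0.405). At P35 the order of the means was turned, with 23.5±3.75 CPM in KO and 29.6±2.84 CPM in WT (−0.31, SE 0.123, adjusted *P*=0.071), whereas with library totals as the scaling it was 0.10.

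The KO effect on *Dok7* differed between P1 and P35 by −0.90 (SE 0.210, adjusted *P*=0.00205) in 1 fit of all libraries, in a comparison added after the data had been seen. In that comparison 15.9% of 18583 genes passed an adjusted *P* of 0.01, and 2 of the 7 did, *Dok7* and *Colq*. With library totals the *Dok7* difference was −0.51 (adjusted *P*=0.028), and 3 of the 7 passed, *Rapsn* (0.70, adjusted *P*=0.000106), *Ache* (1.31, adjusted *P*=0.000858) and *Colq* (2.10, adjusted *P*=0.000465). In WT alone *Dok7* went from 17.5±2.19 CPM at P1 to 24.1±1.95 CPM at P14 (0.47, adjusted *P*=0.00611), under the 1.5-fold cutoff.

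*Rapsn* (ENSMUSG00000002104, chr2:91035620-91045729, plus strand), the AChR scaffold, had a higher mean in KO than in WT from P14 on, with no call under TMM. At P14 KO libraries held 23.9, 24.1, 26.8 and 25.6 CPM and WT libraries 20.8, 19.6, 20.3 and 19.8 CPM, without overlap. The log2 fold change was 0.32 (SE 0.0553) at P14 with an adjusted *P* of 0.123, 0.23 (adjusted *P*=0.0672) at P21 and 0.20 (adjusted *P*=0.0765) at P35. With library totals the P35 value was 0.60 (adjusted *P*=0.00014) and past both cutoffs. In WT it stood at 19.5±2.11 CPM at P1 and 25.2±1.99 CPM at P35. In KO it went from 17.7±3.59 CPM at P1 to 25.1±1.35 CPM at P14, a step of 0.50 (adjusted *P*=7.3e-05) that lay under the 1.5-fold cutoff. Without KO P1 replicate 3 the step was 0.60 (adjusted *P*=1.14e-05) and passed.

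At P14 same-numbered WT and KO libraries deviated together (r=0.27, 0.31, 0.20 and 0.61). The labels name no shared litter or batch, and differently numbered libraries were not compared, so a pairing is not established. A fit with the replicate block gave smaller errors at P14. In edgeR 883 genes passed an adjusted *P* of 0.05 with the block and 15 without it. With the block the KO effect at P14 was 0.58 for *Colq* (SE 0.0614, adjusted *P*=0.000989), 0.37 for *Dok7* (SE 0.0519, adjusted *P*=0.00404), 0.32 for *Rapsn* (SE 0.0483, adjusted *P*=0.00612) and 0.28 for *Lrp4* (SE 0.0469, adjusted *P*=0.00925). The 4 genes passed an adjusted *P* of 0.05 with KO above WT, against 5.61% of all 15728 genes, and 0 of the 7 exceeded 1.5-fold. *Musk*, at 0.30, had an adjusted *P* of 0.0563 in the same fit. *Ache* and *Agrn* were at 0.08 and −0.01 (adjusted *P*=0.506 and 0.900).

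*Colq*, the anchor of the enzyme, was the gene with the largest KO effect at P14, P21 and P35. WT libraries held 11.8, 11.1, 15.2 and 14.6 CPM and KO libraries 15.1, 17.5, 23.1 and 23.6 CPM at P14, which overlapped narrowly. At P21 WT held 21.0, 6.29, 18.6 and 15.02 CPM and KO 28.9, 59.6, 29.7 and 34.7 CPM, and at P35 WT held 13.5, 10.3, 10.9 and 3.27 CPM and KO 20.8, 29.1, 45.7 and 37.0 CPM. All 4 KO libraries were above all 4 WT libraries at both ages, and the spread was wide in each group. The log2 fold change was 0.10 (SE 0.135, adjusted *P*=0.806) at P1, 0.59 (SE 0.162, adjusted *P*=0.452) at P14, 1.34 (SE 0.355, 2.53-fold, adjusted *P*=0.0264) at P21 and 1.83 (SE 0.384, 3.55-fold, adjusted *P*=0.00473) at P35. The P35 call was lost without WT replicate 2 (1.86, adjusted *P*=0.0138), WT replicate 3 (1.90, 0.0121), KO replicate 3 (1.62, 0.0152) or KO replicate 4 (1.76, 0.0128), while the fold stayed above 1.5 in all 8 such fits. Its effect was larger at P35 than at P1 by 1.72 (SE 0.453, adjusted *P*=0.00559), which was no longer under 0.01 without any of WT P1 replicate 2 (0.0104) or 4 (0.0128), KO P1 replicate 3 (0.0102) or 4 (0.012), or KO P35 replicate 3 (0.0191) or 4 (0.0109).

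*Colq* in WT went from 11.2±1.54 CPM at P1 to 15.2±6.44 CPM at P21 and 9.51±4.38 CPM at P35, with no step that passed the test. In KO it went from 19.9±4.18 CPM at P14 to 38.2±14.5 CPM at P21 (0.95, adjusted *P*=0.0266) and 33.2±10.7 CPM at P35. The gene shares 199 exon bases on the same strand with *Gm49387*, which had at most 6 counts in any library. *Ache* shares 98 exon bases on the opposite strand with *Gm42456* (at most 2 counts).

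*Ache* (ENSMUSG00000023328, chr5:137287519-137294466, plus strand), the enzyme itself, was higher at P14 than at P1 in both genotypes. WT libraries held 39.9, 48.5, 41.0 and 42.8 CPM at P1 and 87.1, 79.0, 89.8 and 74.3 CPM at P14, without overlap, and KO libraries went from 41.9, 43.2, 43.6 and 30.6 CPM to 78.9, 99.4, 96.9 and 76.5 CPM. The log2 fold change from P1 to P14 was 0.94 in WT (adjusted *P*=0.00027) and 1.14 in KO (adjusted *P*=2.51e-05). Both calls rested on the scaling: with library totals, which moved the median of all genes over this step to −0.87 in WT and −0.81 in KO, the *Ache* step was 0.16 (adjusted *P*=0.46) and 0.41 (adjusted *P*=0.0652). At P35 WT held 90.4, 63.3, 70.6 and 54.4 CPM and KO 104, 73.3, 172 and 139.7 CPM, with KO replicate 2 inside the WT range. The KO effect was 0.35 (SE 0.225, adjusted *P*=0.297) at P21 and 0.83 (SE 0.249, 1.78-fold, adjusted *P*=0.0236) at P35, which missed the call. Without KO P35 replicate 2 it was 1.01 (adjusted *P*=0.00506). The difference of the P35 effect from that at P1 was 0.93 with all libraries (adjusted *P*=0.0216), which did not pass 0.01. Without KO P35 replicate 2 that difference was 1.11 (adjusted *P*=0.00413). With library totals the P35 effect was 1.23 (adjusted *P*=0.00198).

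**Figure D3:**
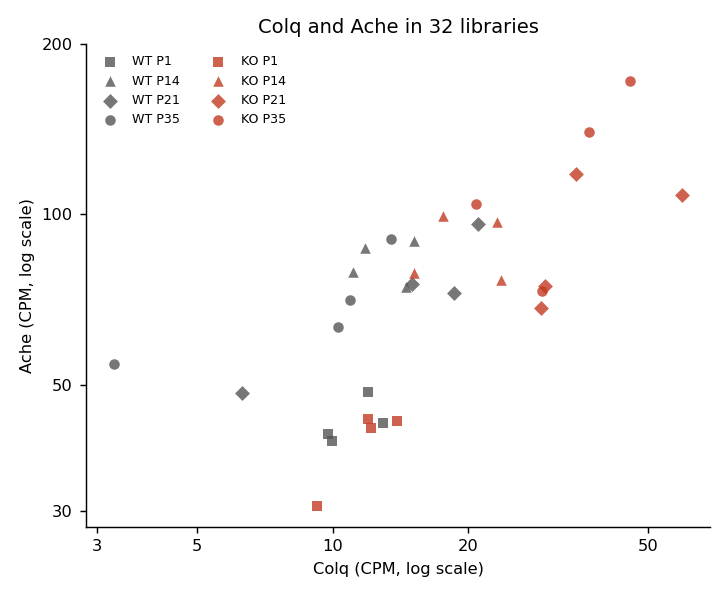
Ache against Colq (CPM, both axes logarithmic) with 1 point for each of 32 libraries, by genotype (WT grey, KO red) and age (symbol). WT P21 replicate 2 (Colq 6.29, Ache 48.4 CPM) and WT P35 replicate 4 (3.27, 54.4 CPM) sit at the lower left, and KO P35 replicates 3 and 4 at the upper right.

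Some libraries with low or high *Colq* and *Ache* also stood apart in other genes of the synapse. Besides the 7, 6 genes enriched in the nuclei under the synapse (*Chrne*, *Chrna1*, *Etv5*, *Ufsp1*, *Prkar1a* and *Phldb2*) summed to 672, 327, 588 and 499 CPM in the WT libraries of P21 and 658, 750.3, 552 and 779.6 CPM in KO. At P35 the sums were 445, 432, 461 and 286 CPM for WT and 583, 619, 904 and 845 CPM for KO. WT P21 replicate 2 and WT P35 replicate 4, the low libraries of *Colq*, were also lowest here, and KO P35 replicates 3 and 4 highest. *Prkar1a* held most of each sum, with 475, 246, 418 and 357 CPM in WT at P21. *Chrne*, *Chrna1* and *Ufsp1* were each also lowest of their group in the same WT libraries. KO P21 replicate 2, the highest library of *Colq*, was not the highest of its group in the sum. Of the 6 genes, 2 were DEGs at P35, *Chrna1* and *Prkar1a*, both higher in KO, beside 16% of all genes tested. How much of the synaptic region each muscle piece held was not tested. The summed level of 10 Schwann cell genes ranged from 99.7 to 615 CPM in WT and 337 to 1321 CPM in KO at P35, and *Egr2*, a myelination factor, was a DEG higher in KO. Of 5 macrophage genes 3 were DEGs higher in KO at P35 (*C1qa*, *C1qb* and *Cd68*; sums of 36.1 to 44.6 CPM in WT, 53.7 to 79.6 in KO) and 2 at P21. The macrophage count at P21 was 0 with the replicate block and 5 with library totals. Of 4 satellite cell genes 2, *Pax7* and *Calcr*, were DEGs lower in KO at both ages (sums at P35 of 23.8 to 39.0 CPM in WT, 12.1 to 26.9 in KO). Of all genes tested, 4.67% were DEGs at P21 and 16% at P35. Mitochondrially encoded transcripts took 9.75 to 12.0% of counts in WT and 8.21 to 8.78% in KO at P21, and 12.4 to 17.9% and 10.3 to 10.52% at P35. The part of Schwann cells, macrophages, satellite cells and mitochondrial RNA in these results was not tested.

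Across the 8 groups, few neighbours in the order of mean levels were apart. For *Agrn* the order was KO P1, WT P1, WT P14, KO P14, WT P21, WT P35, KO P21 and KO P35, and of its 7 neighbouring pairs WT P1 and WT P14 did not overlap. The order of *Ache* was KO P35, KO P21, KO P14, WT P14, WT P21, WT P35, WT P1 and KO P1, with WT P35 and WT P1 apart. The order of *Rapsn* was KO P35, KO P21, WT P35, KO P14, WT P21, WT P14, WT P1 and KO P1, with WT P21 and WT P14 apart. *Lrp4* ran from both P1 groups down to both P35 groups, with KO P14 and KO P21 above WT P14 and WT P21. *Colq* ran KO P21, KO P35, KO P14, WT P21, WT P14, KO P1, WT P1 and WT P35. *Musk* had both P1 groups first, then KO P21, KO P35 and KO P14 above WT P21, WT P14 and WT P35, and *Dok7* ran from KO P14 and WT P35 down to KO P35 and WT P1. In these last 4 genes all 7 neighbouring pairs overlapped.

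Most of the transcriptome differed between P1 and P14, and 2 of the 7 genes were called in each genotype, *Ache* up and *Agrn* down. The P1 samples also held skin transcripts, so age and sample content cannot be told apart in this step. The share of all 18583 genes called was 53.5% in WT and 53.7% in KO. From P14 to P21, 0 of the 7 were called in WT, where the background was 6.83% (2 at an unadjusted *P* under 0.05, and 0 in DESeq2), and *Agrn* was called in KO, where it was 9.16%. From P21 to P35, *Lrp4* was called in both genotypes, with a background of 4% in WT and 6.34% in KO. With library totals the sign from P1 to P14 turned for *Rapsn*, *Dok7* and *Colq* in both genotypes (WT −0.73, −0.31 and −0.55), and *Agrn* stayed lower (−1.43 in WT).

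The KO effect was also compared between successive ages. Between P1 and P14, 0.0161% of genes differed in KO effect at an adjusted *P* of 0.01, between P14 and P21 0.425%, and between P21 and P35 0.463%, with 0 of the 7 genes each time by edgeR and by DESeq2 (1, 0 and 1 at an unadjusted *P* under 0.05). Between P14 and P35, in a comparison added later, 8.53% of genes differed and 0 of the 7 (4 at an unadjusted *P* under 0.05), while DESeq2 gave 1, *Dok7*. Of the intervals compared with TMM, the KO effect on *Colq* thus differed at this threshold over P1 to P35, and with library totals also over P14 to P35 (*Colq* and *Ache*).

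The AChR subunits, the clients of these genes, moved further. At P35, 4 of 5 were DEGs higher in KO, namely *Chrna1* (1.97), *Chrnb1* (0.80), *Chrnd* (2.92) and *Chrng* (2.52) on the log2 scale, and *Chrne* was at 1.25 (adjusted *P*=0.0145). At P21, 2 of 5 were DEGs higher in KO, *Chrnb1* and *Chrnd*. The P21 count was 1 with RLE scaling or with the replicate block, and 3 with library totals. Of 16 alternatives, *Chrnb1* at P21 had an adjusted *P* under 0.01 in 11 and *Chrnd* in 10. These counts stood beside 4.67% of all genes tested at P21 and 16% at P35. The list median was 1.36 at P21 and 1.97 at P35, beside 0.01 and 0.04 for all genes. The P21 median is the value of *Chrng* (adjusted *P*=0.0568). That gene had low counts, with 0.0983 to 0.507 CPM in WT at P21 and 0.346 to 0.546 CPM in WT at P35.

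Genes that act below MuSK range from kinases to the actin regulators of the postsynaptic membrane. Of 25, 0 were DEGs at P21 by edgeR or DESeq2 (12 at an unadjusted *P* under 0.05; median 0.09), and at P35 4 were higher and 1 lower in KO (median 0.03), with 18 at an unadjusted *P* under 0.05. Of all genes tested, 4.67% were DEGs at P21 and 16% at P35, so that 5 of 25 is near the background. An unadjusted *P* under 0.05 was held by 7848 of all 15595 genes at P35. *Cttn*, the actin-binding cortactin, was at 0.82 (SE 0.0767, adjusted *P*=0.000118). The kinases *Fyn* and *Pak1* were at 0.65 (adjusted *P*=0.00129) and 0.88 (adjusted *P*=0.00206), and the lower gene was *Dnaja3*, the MuSK-binding chaperone Tid1, at −0.61 (adjusted *P*=0.000322). With library totals 11 were higher and 0 lower, and *Dnaja3* was at −0.21 (adjusted *P*=0.0291).

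In the synaptic basal lamina and the dystrophin-utrophin complex, 0 of 22 genes were DEGs at P21 in edgeR (8 at an unadjusted *P* under 0.05, and 2 DEGs in DESeq2, *Prima1* and *Sntb1*; median −0.12, or 0.07 with library totals) and at P35 1 was higher and 4 were lower in KO (median −0.20, or 0.21 with library totals). The 5 DEGs of 22 at P35 stood beside 16% of all genes tested. The largest change was in *Prima1*. It encodes the transmembrane anchor that binds acetylcholinesterase through a proline-rich run of its own, as ColQ does in the basal lamina. WT libraries at P35 held 6.08, 1.97, 3.54 and 4.50 CPM of *Prima1* and KO libraries 0.518, 0.398, 0.153 and 0.178 CPM, without overlap. The log2 fold change was −3.65 (SE 0.458, 12.6-fold lower, adjusted *P*=0.000375), after −1.41 at P21 (adjusted *P*=0.0128), and it was −3.24 with library totals. The anchors of the enzyme thus lay in opposite directions at P35, *Colq* 3.55-fold higher and *Prima1* 12.6-fold lower. *Bche*, which encodes the related butyrylcholinesterase, was at 0.13 (adjusted *P*=0.627).

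Among collagens and laminins of the same list, *Col4a3* and *Col4a4*, chains of the synaptic collagen IV, were lower in KO at P35 (−1.13, adjusted *P*=0.00082, and −0.71, adjusted *P*=0.00705). *Lama5*, a synaptic laminin chain, was also lower (−0.64, adjusted *P*=0.00262), and *Col4a5* was higher (1.05, adjusted *P*=0.00417). With library totals 2 of the 4 lower calls of the list were lost, *Lama5* (−0.24, adjusted *P*=0.124) and *Col4a4* (−0.31, adjusted *P*=0.158). Of 16 alternatives, *Col4a4* had an adjusted *P* under 0.01 in 8 and *Col4a5* in 11.

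In the list of neuregulin signalling and synaptic transcription, *Erbb2*, a neuregulin receptor, was the 1 DEG of 8 genes tested at P21 (0.72, adjusted *P*=0.00631; median 0.09). At P35 *Erbb2* (1.29, adjusted *P*=5.61e-05) and *Prkar1a*, a regulatory subunit of protein kinase A enriched at the synapse (0.79, adjusted *P*=0.00406), were higher (median 0.26). Of 16 alternatives, *Erbb2* at P21 had an adjusted *P* under 0.01 in 8 and *Prkar1a* at P35 in 12. With the replicate block the list held 0 DEGs at P21 and 1 at P35. Of all genes tested, 4.67% were DEGs at P21 and 16% at P35. Of 9 denervation-responsive genes, 5 were higher and 1 lower in KO at P21 and again at P35 (medians 1.23 and 1.57). At P35 *Runx1*, a transcription factor, was at 3.15 (adjusted *P*=4.27e-05), *Ncam1*, an adhesion molecule, at 1.91 (0.000136) and *Myog*, myogenin, at 2.35 (0.000323). *Dach2*, a repressor of myogenin, was at −2.95 (adjusted *P*=0.000873).

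Of 5 glycosylation genes mutated in congenital myasthenic syndromes, 0 were DEGs in edgeR at P21 or P35 (medians −0.05 and 0.00, or 0.14 and 0.40 with library totals). At an unadjusted *P* under 0.05 there were 1 and 3, and at P35 DESeq2 called 1 (*Gfpt1*) and library totals 1. Among 6 other members of the LDL receptor family, to which *Lrp4* belongs, 0 were DEGs at P21 in edgeR or DESeq2 (4 at an unadjusted *P* under 0.05; median 0.23) and *Lrp6*, a Wnt co-receptor, was lower at P35 (−0.60, adjusted *P*=0.00111; median −0.10, or 0.30 with library totals). The 1 of 6 is near the 16% of all genes that were DEGs at P35. With library totals *Lrp6* was at −0.19 (adjusted *P*=0.126), and of the 6 genes 2 were called higher and 0 lower. At P1 and P14, 0 genes of these 7 lists were DEGs in edgeR. At an unadjusted *P* under 0.05 there were 6 of 81 at P1 and 14 of 80 at P14, and DESeq2 called 0 and 1 (*Runx1*).

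**Figure D4:**
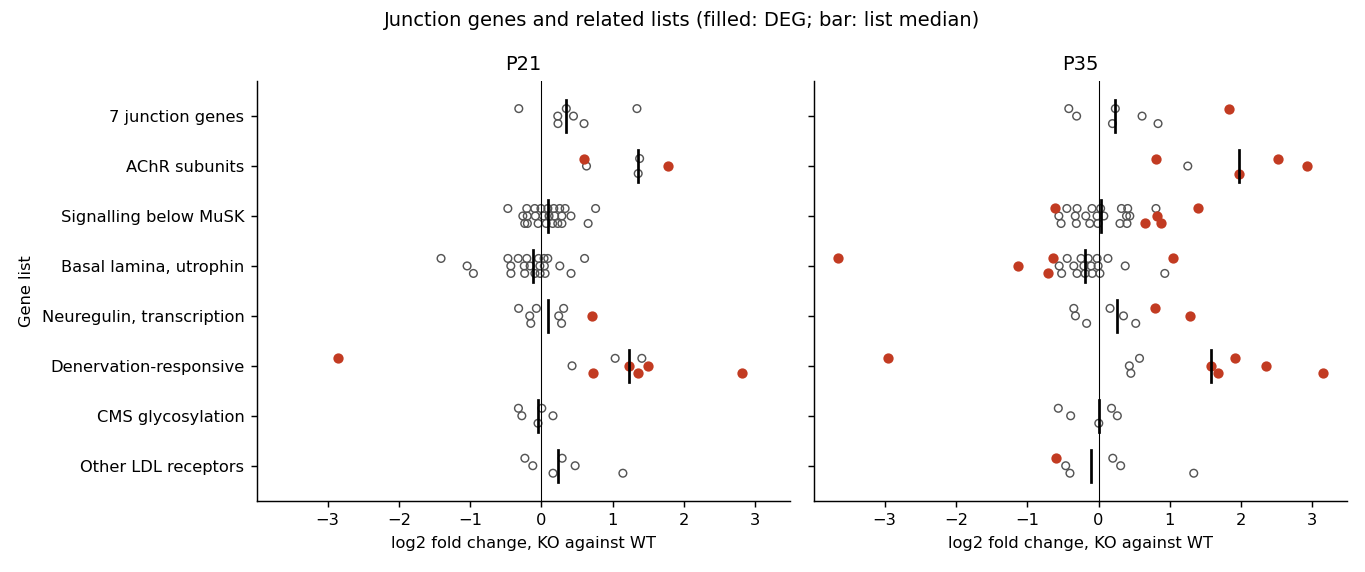
Log2 fold change of KO against WT at P21 and P35 for the genes of 8 lists (1 circle per gene; filled red, DEG; open, not a DEG; vertical bar, list median). The medians of AChR subunits (1.97 at P35) and denervation-responsive genes (1.57) lie furthest to the right, Colq is the filled point of the 7 junction genes at P35, and Prima1 is the leftmost point there.

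The scaling bears on all values at the later ages. With library totals in place of TMM, the median of all genes was 0.20 at P21 and 0.44 at P35, so that each KO effect was shifted upward by a like amount. Relative to TMM, *Agrn* at P35 went from −0.42 to −0.02 and *Dok7* from −0.31 to 0.10. *Lrp4*, *Musk*, *Rapsn* and *Ache* became DEGs at P35, and *Colq*, at 2.23, remained one.

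Each gene was also set against the 13520 genes with a mean of at least 1 CPM, by the Pearson correlation of log2 CPM over the 32 libraries. The values describe patterns shared across age, genotype and sample content, and the libraries of a group share their age. *Agrn* was most like *Fnbp1l* (r=0.972), *Fbxl7* (0.970) and *Heph* (0.970), and *Lrp4* most like *Prr12* (0.935), *Topors* (0.933) and *Xpo5* (0.932). For *Rapsn* the nearest were *Mef2c* (0.913), *Pacsin3* (0.906) and *Akt2* (0.900), and for *Colq* *Zfp385c* (0.847), *Nfkb2* (0.834) and *Prkar1a* (0.8291). *Musk* was most like *Col19a1* (0.836), *Akap11* (0.80) and *Ncam1* (0.765), and *Dok7* had the lowest values, with *Art3* (0.687), *Klf13* (0.679) and *Zxdc* (0.676). *Ache* was most like *Ufsp1* (0.983) and *Psmg2* (0.925).

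*Ufsp1*, a protease of the ufmylation pathway, followed *Ache* in level as well. At P35 WT held 28.1, 21.0, 19.3 and 15.98 CPM of *Ufsp1* and KO 34.5, 21.5, 51.3 and 49.6 CPM, with KO replicate 2 again inside the WT range. Its KO effect was 0.92 (SE 0.267, adjusted *P*=0.0216), which missed the call as that of *Ache* did. Without P1, over 24 libraries, *Colq* was most like *Chrnd* (r=0.899) and *Chrne* (0.888), and *Ache* most like *Ufsp1* (0.961), *Chrne* (0.874) and *Chrna1* (0.808).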

How the data were processed

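TA muscle RNA of 4 WT and 4 *Mtm1* KO mice at each of 4 ages was sequenced, and groups were taken from the labels. Per the submitters' processing notes, reads were aligned with STAR 2.6.1 and counted with RSEM 1.2.22 on GRCm38, whereas HTSeq is the counter in the methods. The deposited table holds the authors' expected counts per gene and library, neither scaled nor pooled. Whether the counting used strand is not given in the sources used here, and RSEM shares reads among similar genes (4.26% of values were not whole). Counts summed to a median of 59926186 per library, so sampling noise was small for the 7 genes, and intervals cover the spread between mice only. All replicate pairs differed by more than sampling noise.

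Expected counts were rounded and tested with edgeR 4.0.16 in R 4.3.3 (filterByExpr, TMM, glmQLFit, glmQLFTest, two-sided, Benjamini-Hochberg over all genes tested). KO was compared with WT within each age, and age steps and differences of KO effects were contrasts in 1 fit of 32 libraries. DEGs had an adjusted *P* under 0.01 and over 1.5-fold change. Levels used a prior count of 2 where logged. Alternatives were DESeq2 1.42.0, RLE, library totals, no filter or 10 counts in every library, adjusted deviances, a replicate block, other sets of libraries, a looser threshold and leaving out each library. The script was tested on simulated data.

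Same-numbered WT and KO libraries deviated together at P14 (r=0.27, 0.31, 0.20 and 0.61), with numbers taken from the labels, and not at every number at the other ages. The members and gene lists were chosen with earlier results of these data known. Named were all 7 genes, up to 4 DEGs per list by adjusted *P*, the 3 genes most like each member (1 of them is not reported here) and *Mtm1*, and after their values were seen *Bche*, *Chrne*, *Col4a4*, *Sntb1*, *Gfpt1*, the markers *Cdh5*, *Tie1*, *Egr2*, *Chat*, *C1qa*, *C1qb*, *Cd68*, *Pax7*, *Calcr* and *Pecam1*, and the values of *Ufsp1*. Gene names and coordinates are from GENCODE M21, which named 54809 of 54838 genes. Agrin and ColQ sequences are from its transcripts. Tables used pandas 2.3.3 and numpy 2.4.6 in python 3.11.15, and plots matplotlib 3.10.9.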

Additional observations from a re-analysis of the deposited data

Results flagged for a closer look

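*Ache* in KO P1 replicate 4, at 30.6 CPM, lay far below the other 3 libraries of its group (41.9 to 43.6 CPM). It was 1 of 56 groups of 4 libraries looked at, and chance gives about 1 in 20 such groups. The same library was the lowest of its group for 6 of the 7 genes, and its summed motor neuron markers were 35.2 CPM. Mitochondrially encoded transcripts took 5.20% of its counts, against 3.21 to 3.35% in the rest of its group. The part of this library in the motor neuron median at P1 (1.39) was not tested. The KO effect on *Dok7* differed between P1 and P35 by −0.90 (adjusted *P*=0.00205), with KO above WT at P1 and below it at P35. The KO effect on *Colq* was larger at P35 than at P1 by 1.72 (adjusted *P*=0.00559).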

How the results depend on the processing

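With 8 alternatives for each of the 7 genes, 51, 55, 54 and 48 of 56 KO effects kept their direction and side of the threshold at P1, P14, P21 and P35. The number of the 7 genes that were DEGs at P21 (0) was 1 with library totals (*Lrp4*), 1 in 1 fit of 32 libraries (*Colq*, adjusted *P*=0.00444) and 2 at an adjusted *P* of 0.05 with no fold cutoff. The 1 DEG at P35 became 5 with library totals, 0 with the replicate block (*Colq* 1.90, adjusted *P*=0.0108), and 2 (with *Ache*) in DESeq2, in 1 fit and at an adjusted *P* of 0.05, and 0 to 2 on leaving out 1 library. From P1 to P14 in WT, 2 became 4 with library totals and 5 at 0.05, and in KO 3 with library totals (*Lrp4*, *Agrn* and *Musk*, with *Ache* lost) and 5 at 0.05, with 2 to 3 in both on leaving out 1 library. From P14 to P21 in WT, 0 became 1 with library totals and at 0.05, and 0 to 1 on leaving out 1 library. From P21 to P35 in WT, 1 became 0 with only 8 libraries and 0 to 1 on leaving out 1 library. In KO, 1 became 2 at 0.05 from P14 to P21 and from P21 to P35.

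For the difference between P14 and P35, 0 became 2 with library totals and 1 in DESeq2, with only 16 libraries and at 0.05. For that between P1 and P35, 2 became 1 with the replicate block and with only 16 libraries, 3 with library totals (*Rapsn*, *Ache* and *Colq*, with *Dok7* lost), 4 at 0.05, and 1 to 3 on leaving out 1 library. The replicate block changed no other call. The numbers mark different mice, and apart from P14 the pairs did not all deviate together (r of −0.35 to −0.01 at P1, −0.01 to 0.19 at P21 and −0.08 to 0.18 at P35).

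Some directions turned, most of them of KO effects near 0. *Lrp4* at P1 (0.01) was −0.000259 with RLE, −0.000822 without a filter, −0.00416 with the replicate block, −0.00428 in DESeq2, −0.00505 in 1 fit, and −0.0655 to 0.10 on leaving out 1 library. On leaving out 1 library, *Rapsn* at P1 ranged from −0.22 to 0.00745, *Ache* at P1 from −0.15 to 0.00803 and *Agrn* at P14 from −0.0634 to 0.0718. With library totals *Agrn* at P14 was 0.0792 and *Dok7* at P35 (−0.31) 0.10. The cause was not tested. Of the 21 genes most like a member, 9 were shared with those from 24 libraries. With 4 mice per group, effects under 1.5-fold were below the DEG cutoff whatever their error.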
